A study of Homo sapiens with 4 samples.

Results

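The m6A readers and erasers were examined as a group of 10 genes out of 28198 in the table, chosen by name: the readers YTHDF1, YTHDF2, YTHDF3, YTHDC1, YTHDC2, IGF2BP1, IGF2BP2 and IGF2BP3, and the demethylases FTO and ALKBH5. Their mRNAs were followed through polysome profiling of the human breast cancer line MDA-MB-231, in which endogenous METTL3 had been depleted and METTL3 put back by lentivirus, either as METTL3 WT or as METTL3 K177Q, the acetylation-mimetic form with glutamine in place of the lysine. Both genotypes were exposed to cycloheximide shortly before lysis, and the gradient of each was pooled into a sub-polysome fraction, holding free ribosomal subunits and single ribosomes, and a polysome fraction. From each, mRNA was selected by its poly(A) tail and sequenced, and the 4 libraries analysed here, all labelled replicate 2, are 1 per condition. The table has 4 more columns whose names read as replicate 1 of the same conditions, but they match no sample listed for the series and were not analysed here. No value below therefore has a replicate error, no test between conditions was run, and every difference below is between single libraries. Neither the labels nor the methods say whether the reconstituted lines were pools or clones.

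N6-methyladenosine (m6A) is placed on mRNA in the nucleus by the METTL3-METTL14 complex, removed by the demethylases FTO and ALKBH5, and bound by reader proteins. The YTHDF proteins are cytoplasmic readers that are best known for directing methylated mRNAs to decay and, in some settings, to translation; YTHDC1 is the nuclear reader, acting on splicing and export, and YTHDC2 is a large RNA helicase. The IGF2BP proteins bind methylated mRNAs through KH domains and are known to stabilise them. The comparison of METTL3 WT with METTL3 K177Q asks whether the mRNAs of these proteins change their place on the gradient when METTL3 carries the acetylation-mimetic residue.

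The bases around the start codon are shown for 8 of the 9 expressed members (YTHDF3 is not printed), since a ribosome reaches a polysome by initiating there, and since they are a feature that played no part in choosing the genes. Each is the 9 bases before the start codon, the start codon in capitals and the 6 bases after it, 5′ to 3′ on the coding strand, from the canonical transcript of GENCODE 44 on GRCh38 (hg38).
YTHDF1 (chromosome 20, start codon 63215890 to 63215892, minus strand): tcatgaagcATGtcggcc
YTHDF2 (chromosome 1, 28737121 to 28737123, plus strand): ctgagagccATGtcggcc
YTHDC1 (chromosome 4, 68349751 to 68349753, minus strand): aggggagccATGgcggct
YTHDC2 (chromosome 5, 113513896 to 113513898, plus strand): ttcagggcaATGtccagg
IGF2BP2 (chromosome 3, 185824958 to 185824960, minus strand): aagagacggATGatgaac
IGF2BP3 (chromosome 7, 23470108 to 23470110, minus strand): ctcttcacaATGaacaaa
FTO (chromosome 16, 53704185 to 53704187, plus strand): agtggcagcATGaagcgc
ALKBH5 (chromosome 17, 18184244 to 18184246, plus strand): gtgggggccATGgcggcc

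Translation is known to start most readily where an A or G lies at position -3 (counted back from the A of the start codon) and a G follows the start codon at +4. Of the 10 members, 9 have A or G at -3, against 87.6% of the 10207 mRNAs compared, and IGF2BP2 is the exception, as are 12.4% of those mRNAs. A G at +4 is found in 2 members, YTHDC1 and ALKBH5, against 54.5% of mRNAs. The 5′ untranslated region holds an upstream ATG in 5 members (YTHDF1, YTHDC1, YTHDC2, IGF2BP3 and ALKBH5), against 37.9% of mRNAs, and the one in YTHDF1 begins 7 bases before the start codon, within the stretch shown. The 5′ untranslated regions run from 29 bases in FTO to 416 bases with 4 upstream ATGs in ALKBH5, around a median of 130 bases over the mRNAs. The letters GGACT, which form the core of the preferred m6A motif, occur on the coding strand in the coding sequence of 8 members and in the 3′ untranslated region of 8, against 73.2% and 61.3% of mRNAs. These counts are not corrected for length, so no excess of the motif can be read from them. The 3′ untranslated regions run from 823 bases in YTHDF2 to 10026 in FTO, beside a median of 1205 over the mRNAs. IGF2BP1 is counted although it was listed at 0 FPKM. These matches describe the reference transcripts only, since no methylation was measured in these libraries.

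FPKM, the unit of the table, counts fragments per kilobase of transcript scaled to the mapped fragments of the library, so levels of different genes are compared per length. The FPKM totals ran from 767949 in the METTL3 K177Q polysome library to 1037594 in the METTL3 K177Q sub-polysome library, and the depth, which the table does not give, was estimated at 24700000 to 26500000 fragments a library. Ribosomal protein genes took 26.0% and 26.3% of the FPKM in the sub-polysome libraries and 17.4% (METTL3 WT) and 14.1% (METTL3 K177Q) in the polysome libraries, which differ in this share between the genotypes. METTL3 itself stood at 9.39 FPKM (sub-polysome) and 38.7 FPKM (polysome) with METTL3 WT, and at 5.07 and 29.5 FPKM with METTL3 K177Q, where endogenous and introduced transcripts are not separated. Of the markers of the line, VIM, CD44, AXL and CAV1 had at least 88.6 FPKM in every library, while ESR1, PGR and CDH1 stayed at or under 0.632 FPKM. EPCAM, an epithelial gene listed as low or absent, had 6.20 to 9.91 FPKM, and the blood markers PTPRC and CD3E did not exceed 0.0515 FPKM.

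Of the members, 9 were expressed with at least 1 FPKM in each of the 4 libraries and entered the 10905 genes whose mean reached 1 FPKM, on which all comparisons rest. None of them passed this filter through 1 condition alone. IGF2BP1, on chromosome 17 from 48997385 to 49056145 (GRCh38, as all gene positions here), was listed at 0 in every library, so no ratio was computed for it. Since the table gives no counts, that 0 cannot be told apart from a failed estimate. In the comparisons below, the IGF2BP family was thus represented by IGF2BP2 and IGF2BP3 alone. The paper reports that knockdown of IGF2BP1 in the same cell line repressed CAV1 expression. The listed values therefore do not establish that IGF2BP1 mRNA is absent from these cells, and its presence was not tested here.

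The levels of the 9 mRNAs differed widely among themselves and kept much the same order in all libraries. ALKBH5, on chromosome 17 from 18183078 to 18209954, was the most abundant, with 88.5 FPKM in sub-polysomes and 46.6 FPKM in polysomes of METTL3 WT cells, and 93.5 and 54.4 FPKM with METTL3 K177Q. It stood between percentiles 79.6 and 89.2 of the genes compared. FTO, the other eraser, on chromosome 16 from 53701692 to 54158512, had 3.01 and 4.22 FPKM in METTL3 WT cells and 2.50 and 3.98 FPKM in METTL3 K177Q cells. ALKBH5 therefore exceeded FTO 29.4-fold in the sub-polysome and 11.1-fold in the polysome library of METTL3 WT cells, and 37.3-fold and 13.7-fold in METTL3 K177Q cells. These folds rest on the transcript lengths that the authors' annotation gave the genes, and FTO has a long annotated 3′ untranslated region (10026 bases in the canonical transcript).

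**Figure D1:**
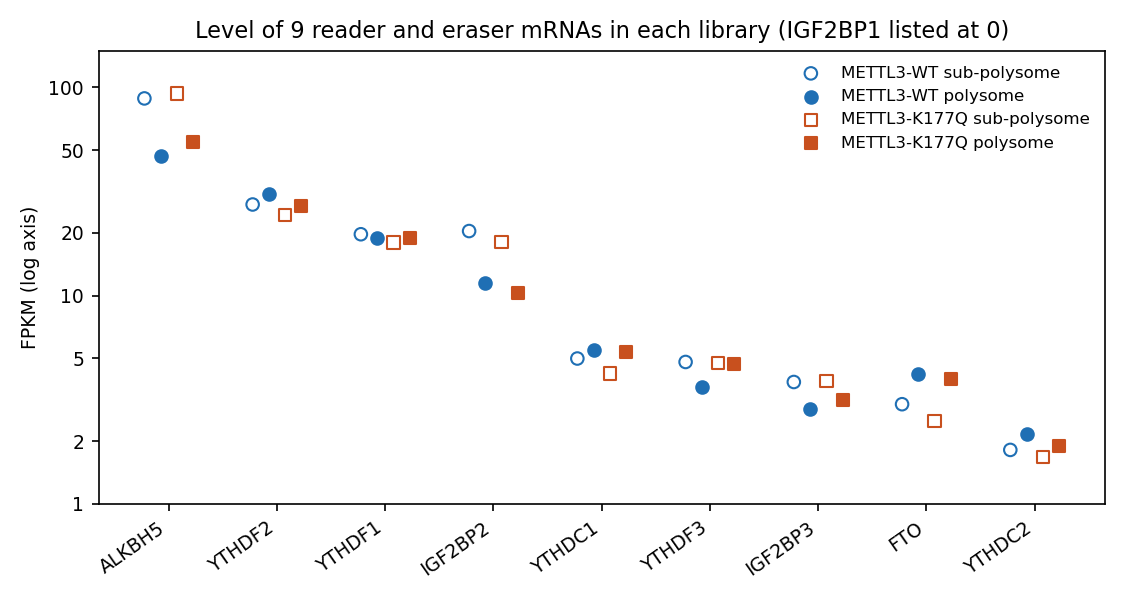
FPKM on a log axis of the 9 expressed members in the 4 libraries, 1 point per library, ordered by mean level; blue circles are METTL3 WT, orange squares METTL3 K177Q, open symbols sub-polysome and filled symbols polysome. ALKBH5 lies at 46.6 to 93.5 FPKM and YTHDC2 at 1.68 to 2.16 FPKM, and the filled symbols of ALKBH5, IGF2BP2, IGF2BP3 and, by a small margin in METTL3 K177Q, YTHDF3 lie under the open ones in both genotypes.

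Among the cytoplasmic YTH readers, YTHDF2, which recruits the CCR4-NOT deadenylase, was the most abundant. It is on chromosome 1 from 28736621 to 28769775 and had 27.4 FPKM in sub-polysomes and 30.7 FPKM in polysomes of METTL3 WT cells, and 24.4 and 27.1 FPKM in METTL3 K177Q cells. YTHDF1, a reader linked to translation, on chromosome 20 from 63195429 to 63216139, had 19.7 and 18.9 FPKM in METTL3 WT cells and 18.0 and 18.8 FPKM in METTL3 K177Q cells. YTHDF3, on chromosome 8 from 63168553 to 63212786, was much lower, with 4.80 and 3.66 FPKM in METTL3 WT cells and 4.76 and 4.70 FPKM in METTL3 K177Q cells. The METTL3 WT polysome library held the lowest YTHDF3 value, while its other 3 values were nearly level. YTHDF2 made up 51.7% to 57.7% of the summed YTHDF level, YTHDF1 35.5% to 38.2% and YTHDF3 6.88% to 10.1%.

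The YTHDC readers were among the lower members. YTHDC1, on chromosome 4 from 68310387 to 68350090, had 4.99 FPKM in sub-polysomes and 5.49 FPKM in polysomes of METTL3 WT cells, and 4.22 and 5.35 FPKM in METTL3 K177Q cells. YTHDC2, on chromosome 5 from 113513694 to 113595285, was the lowest expressed member with 1.82 and 2.16 FPKM in METTL3 WT cells and 1.68 and 1.89 FPKM in METTL3 K177Q cells. In the FPKM as deposited, both were higher in polysomes than in sub-polysomes in each genotype, as was the median of all genes compared (log2 0.14 and 0.16). This sign depended on the processing. Without the trend on coding length, the log2 ratios with METTL3 WT and METTL3 K177Q were -0.15 and -0.084 for YTHDC1 and -0.13 and -0.46 for YTHDC2.

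The expressed IGF2BP readers had a polysome value below the sub-polysome value each time in the FPKM as deposited. After rescaling to equal FPKM totals, the log2 ratio of IGF2BP3 with METTL3 K177Q was 0.13, beside a median of 0.59 over all genes. IGF2BP2, on chromosome 3 from 185643130 to 185825042, had 20.4 FPKM in sub-polysomes and 11.5 FPKM in polysomes of METTL3 WT cells, and 18.15 and 10.3 FPKM in METTL3 K177Q cells. IGF2BP3, on chromosome 7 from 23310209 to 23470491, had 3.85 and 2.85 FPKM in METTL3 WT cells and 3.89 and 3.16 FPKM in METTL3 K177Q cells. IGF2BP2 was 5.31-fold and 4.66-fold above IGF2BP3 in the sub-polysome libraries of METTL3 WT and METTL3 K177Q cells, and 4.03-fold and 3.26-fold in the polysome libraries.

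Translation efficiency was taken as the polysome divided by the sub-polysome value of a genotype, with 0.1 FPKM added to each, and a difference was counted at 1.5-fold, the threshold of the study. Within METTL3 WT cells, 2 of the 9 members, ALKBH5 and IGF2BP2, were at least 1.5-fold lower in polysomes, where 19.1% of all genes compared were. None was at least 1.5-fold higher, against 28.1% of all genes. Within METTL3 K177Q cells, ALKBH5 and IGF2BP2 were again at least 1.5-fold lower, against 21.3% of all genes, and FTO was at least 1.5-fold higher, against 30.2%. The median log2 ratio of the members was -0.06 in METTL3 WT and 0.07 in METTL3 K177Q cells, beside 0.14 and 0.16 over all genes.

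The erasers lay at or near opposite ends of the order of the members. FTO was highest in both genotypes, while ALKBH5 was lowest with METTL3 WT and just above IGF2BP2 with METTL3 K177Q. ALKBH5 had a polysome to sub-polysome ratio of 0.527 in METTL3 WT and 0.583 in METTL3 K177Q cells, at percentiles 11.3 and 16.5 of all genes. FTO had ratios of 1.39 and 1.57, at percentiles 66.6 and 72.5. Summed, the eraser mRNAs were dominated by ALKBH5, so that FTO made up 3.29% of their level in sub-polysomes and 8.29% in polysomes of METTL3 WT cells, and 2.61% and 6.82% in METTL3 K177Q cells. The FTO ratio in METTL3 K177Q cells fell under 1.5-fold with 1 FPKM as pseudocount (1.42), with size factors (1.41), with ratios centred on the median of all genes (1.40) and after removal of its trend on coding length (1.26). After rescaling the libraries to equal FPKM totals (TPM), the ALKBH5 ratio in METTL3 K177Q cells was 0.787, no longer past the threshold, and it was 0.676 with equal totals outside the ribosomal protein genes.

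IGF2BP2 had ratios of 0.565 in METTL3 WT and 0.569 in METTL3 K177Q cells, a log2 ratio of -0.82 and -0.81, and so lay at almost the same place in both. With TPM the value in METTL3 K177Q cells was 0.767 (log2 -0.38), under the threshold, beside a median log2 ratio of 0.59 over all genes. IGF2BP3 had log2 ratios of -0.42 and -0.29, nearer to the middle of all genes. YTHDF2 kept 1.12 and 1.11, and YTHDC2 1.18 and 1.12. YTHDC1, the nuclear reader, had ratios of 1.10 and 1.26, YTHDF1 had 0.957 and 1.05, and YTHDF3 had 0.767 and 0.988.

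In the order of these ratios, many neighbours were closer than counting error allowed to separate (95% intervals from the estimated fragments, which cover counting error and not the spread between libraries). In METTL3 WT cells, only YTHDC1 and YTHDF1, YTHDF1 and YTHDF3, and IGF2BP3 and IGF2BP2 were separated among the 8 neighbouring pairs. In METTL3 K177Q cells these were FTO and YTHDC1, YTHDF3 and IGF2BP3, and IGF2BP3 and ALKBH5.

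Between the genotypes, no member differed by 1.5-fold in either fraction. In polysomes 0 of 9 were past the threshold upward and 0 downward, against 2.13% and 3.13% of all genes. In sub-polysomes 0 of 9 were higher and 0 lower, against 4.01% and 2.94%. At these shares few or no members would be counted if they varied as all genes did, so the zeros do not set the members apart. The log2 ratio of the genotypes (METTL3 K177Q over METTL3 WT) had a median of -0.04 over the members in polysomes and -0.13 in sub-polysomes, beside -0.02 and -0.00 over all genes.

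The direction of these small differences was not shared by all members. YTHDF3 and ALKBH5 had the highest polysome ratios, with log2 values of 0.35 and 0.22, and IGF2BP3 followed with 0.14. The other 6 had values from -0.18 (YTHDC2) to -0.00 (YTHDF1). In sub-polysomes, where the median of all genes was -0.0039, 7 members had a value below 0. FTO (-0.26) and YTHDC1 (-0.24) lay lowest, while ALKBH5 had 0.08 and IGF2BP3 0.02.

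**Figure D2:**
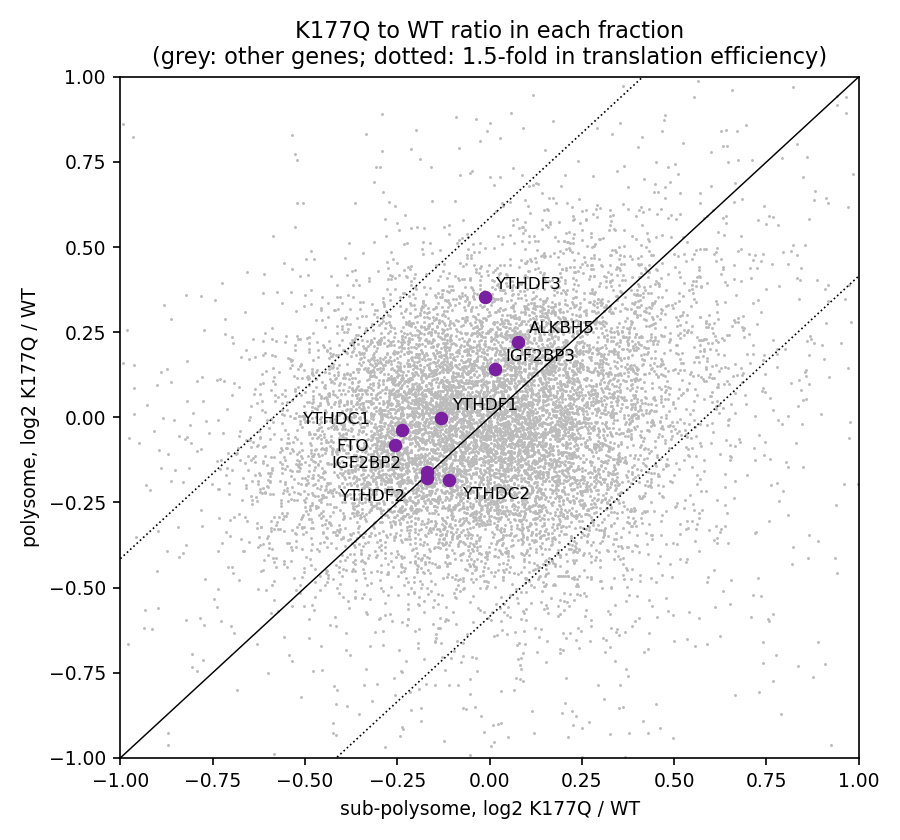
Log2 ratio of the genotypes (METTL3 K177Q over METTL3 WT) in the sub-polysome (x) and polysome libraries (y) for the members (purple, named) and the other genes (grey), with 273 of 10905 genes outside the axes; the solid line marks equal ratios and the dotted lines 1.5-fold in translation efficiency. All 9 members lie between the dotted lines, with YTHDF3 nearest to the upper one.

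Translation efficiency was the quantity the study set against the genotype. It was past 1.5-fold upward in METTL3 K177Q cells for 0 of 9 members and downward for 0, against 4.08% and 7.03% of all genes. The log2 ratio of the members ran from -0.08 to 0.37 with a median of 0.13, beside -0.01 for all genes with a middle 50% from -0.25 to 0.21. Values above 0 were found for 7 of the 9. YTHDF3 had the highest, 0.37 or 1.29-fold, at percentile 86.9 of all genes, with a 95% counting interval from 0.13 to 0.60. It was followed by YTHDC1 with 0.20, FTO with 0.18, ALKBH5 with 0.14, YTHDF1 with 0.13 and IGF2BP3 with 0.13. IGF2BP2 (0.01) and YTHDF2 (-0.01) were level, and YTHDC2 had -0.08.

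The counting interval lay wholly above 0 for YTHDF3 and for ALKBH5 (0.067 to 0.22) and held 0 for the other 7. The share of all genes with such an interval was not computed, and ALKBH5 lay at percentile 67.3 of all genes. These intervals therefore do not set the members apart from other genes. No neighbouring pair in the order of the translation efficiency ratios was separated beyond counting error. With TPM, which put all genes at a median of 0.29, all 9 values were above 0 and YTHDF3 passed the threshold at 0.66, as it did at 0.60 with equal totals outside the ribosomal protein genes, where the median of all genes was 0.23. These scalings also put 18.6% (TPM) and 13.9% (equal totals) of all genes past the threshold upward and 2.83% and 3.13% downward, so that 1 of 9 members is no larger a share than that of all genes. Relative to the median of all genes, that of the members was 0.14 in the values as deposited, with TPM and with equal totals, and 0.066 once the coding-length trend was removed. A change common to all mRNAs of a library cannot be seen in FPKM.

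**Figure D3:**
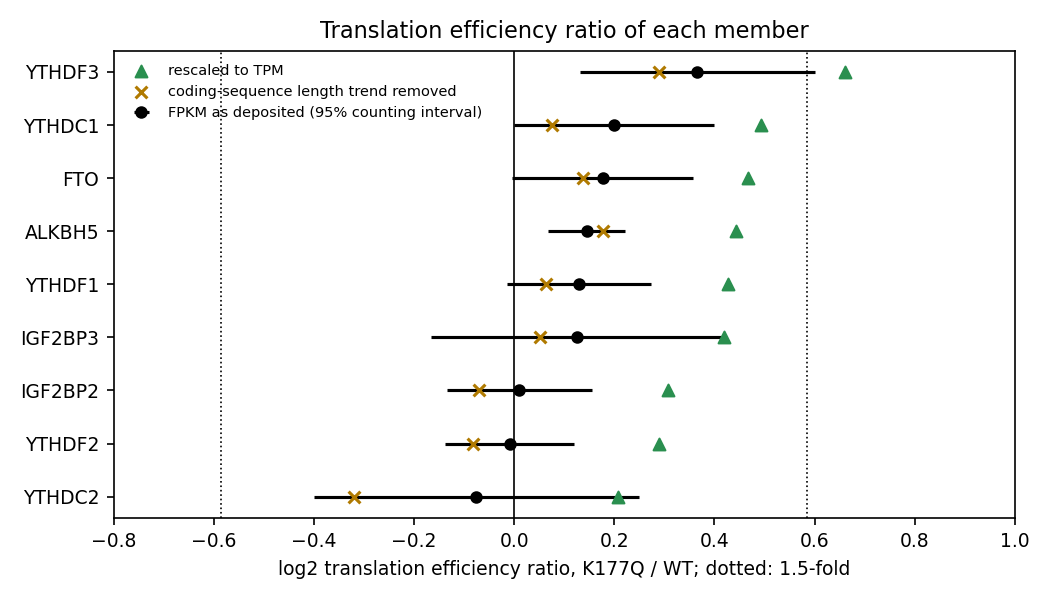
Log2 ratio of translation efficiency, METTL3 K177Q over METTL3 WT, for the 9 members: black points are the values from deposited FPKM with the 95% counting interval, green triangles those after rescaling to TPM, brown crosses those without the trend on coding length, and dotted lines 1.5-fold. The black points run from -0.08 for YTHDC2 to 0.37 for YTHDF3, and the triangle of YTHDF3 at 0.66 is beyond the line.

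The partners and relatives of these proteins were counted in the same way, beside the same shares of all genes. Among 11 other proposed m6A readers, all expressed, 0 were past 1.5-fold in translation efficiency in either direction. The highest were PRRC2A with a log2 ratio of 0.58 and FMR1, the fragile X protein, with 0.57, both just under the threshold, and the lowest were LRPPRC with -0.27 and HNRNPA2B1, a nuclear ribonucleoprotein, with -0.08. Of these 11, 8 were at least 1.5-fold higher in polysomes with METTL3 WT and 8 with METTL3 K177Q, with median log2 ratios of 0.78 and 0.86, against 28.1% and 30.2% of all genes. In the other lists the number past 1.5-fold upward was 4 with METTL3 WT and 5 with METTL3 K177Q of the 13 decay partners described next, 2 and 3 of the 4 nuclear partners of YTHDC1, 1 and 1 of the 3 IGF2BP partners, 2 and 1 of the 7 AlkB homologues, 2 and 3 of the 8 writers and 0 and 0 of the 4 other methyltransferases. Downward it was 2 and 3 of the decay partners, 1 and 1 of the IGF2BP partners, 1 and 0 of the AlkB homologues and 1 and 1 of the writers. It was 0 in both genotypes for the other proposed readers, the nuclear partners and the other methyltransferases. Of all genes, 19.1% and 21.3% were past it downward. In sub-polysomes FMR1 was the 1 of the 11 that was past 1.5-fold, lower in METTL3 K177Q cells (log2 -0.60). Of the 8 writers, 2 were also at least 1.5-fold lower in sub-polysomes, METTL3 (-0.88) and ZC3H13 (-0.66). Of all genes, 2.94% were.

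Among 14 deadenylase and decay partners of the YTHDF proteins and YTHDC2, 13 were expressed and 0 were past 1.5-fold. UPF1, the helicase of nonsense-mediated decay, had a log2 ratio of 0.29 and CNOT1, the scaffold of the CCR4-NOT deadenylase, 0.28, while CNOT6, a deadenylase subunit, had -0.18 and RPP25, an RNase P subunit, -0.07. XRN1, the exonuclease that YTHDC2 is known to bind, was under the minimum with 0.623 to 0.871 FPKM. The 4 nuclear partners of YTHDC1 had 0 past the threshold, from 0.19 for the splicing factor SRSF10 and 0.14 for CPSF6 to 0.13 for SRSF3 and 0.00 for the export receptor NXF1. Of 3 partners of the IGF2BP proteins, ELAVL1, which is also among the other proposed readers, had 0.18, MATR3 0.14 and PABPC1, the poly(A)-binding protein, -0.34, and 0 were past the threshold.

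The other AlkB homologues, relatives of the erasers, were all 7 expressed and 0 were past 1.5-fold, with a median of -0.17. ALKBH1 had a log2 ratio of 0.32 and ALKBH8 0.29, and ALKBH4 had -0.44 and ALKBH6 -0.24. Among the 8 writers, 1 was higher, ZC3H13 with 0.59, followed by METTL3 with 0.48, and 0 were lower, against 4.08% and 7.03% of all genes. Neither rose in polysomes. The log2 ratio of the genotypes in sub-polysomes and polysomes was -0.66 and -0.07 for ZC3H13, and -0.88 and -0.39 for METTL3. ZC3H13 was only just past the threshold, at a mean of 1.61 FPKM and with a counting standard error of 0.16. The lowest were RBM15 with -0.12 and RBM15B with 0.06. Of the 4 other m6A and m6Am methyltransferases, 0 passed the threshold, with ZCCHC4 at 0.18 and METTL16 at 0.15, and METTL5 at -0.16 and PCIF1 at 0.10. A last list holds transcripts that the study picked for lower m6A and altered abundance in METTL3 K177Q cells and then followed under reader knockdown, so it is no independent list. The log2 ratio was 0.32 for NRP2, 0.27 for ULK1, 0.07 for IL6 and -0.10 for CAV1, so that 0 of 4 passed the threshold. By level, IL6 had 174 FPKM (sub-polysome) and 186 FPKM (polysome) with METTL3 WT, and 194 and 218 FPKM with METTL3 K177Q. In the same order CAV1 had 88.6, 110, 94.6 and 109 FPKM, NRP2 2.26, 2.84, 2.18 and 3.45 FPKM, and ULK1 2.98, 6.31, 2.64 and 6.75 FPKM. The paper reports lower IL6, NRP2 and CAV1 mRNA and higher ULK1 mRNA in METTL3 K177Q cells, measured in unfractionated RNA. Here the log2 ratio of the genotypes in sub-polysomes and polysomes was 0.16 and 0.23 for IL6, which was thus not lower in either fraction. It was 0.10 and -0.01 for CAV1, -0.05 and 0.27 for NRP2, and -0.17 and 0.10 for ULK1.

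The genes whose 4 values ran most like those of YTHDF3, by the Euclidean distance of log2 values centred on each gene's mean in the 4 libraries and over the 7208 genes averaging 5 FPKM or more, were MED9 (distance 0.038), BACH1 (0.064) and TBL1X (0.070). MED9 had 14.2 and 11.0 FPKM in METTL3 WT cells and 14.5 and 14.3 FPKM in METTL3 K177Q cells, low in the METTL3 WT polysome library alone, as YTHDF3 was. For YTHDC2, the member with the lowest translation efficiency ratio, they were UBXN4 (0.031), VPS37C (0.034) and ALYREF (0.038). Each likeness rests on 4 values per gene, and nothing follows from it about function.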

How the data were processed

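Per the file headers, the deposited table gives 1 FPKM value per gene and library, and the submitters' processing notes name STAR 2.7, StringTie 2.1.5 and the build hg38 without their roles. The annotation the authors used is not given in the sources used here. Libraries were poly(A)-selected and strand-directional, and 4 further columns, named as replicate 1 of these conditions, were left out because they match no listed sample. Values were taken as log2(FPKM + 0.1), which understates changes of low genes, for the 10905 of 28198 genes averaging 1 FPKM or more. The file gives no counts. FPKM times canonical transcript length (GENCODE 44, found for all 10 members) falls into steps at low values, and the lowest step, between 0.028 and 0.05, was read as 1 fragment to estimate the depth. Counting intervals from it are approximate. With 1 library used per condition no test was run.

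The members and gene lists were chosen with earlier results of these data known. Named were all members, METTL3, the 2 highest and the 2 lowest of each list and the 3 genes most like the extreme members. Alternatives were other pseudocounts, filters and library scalings, a 2-fold threshold and, added after seeing the data, removal of a lowess trend (span 0.3) on coding-sequence length. The ratio and its threshold were tested on simulated data. Python 3.11.15, pandas 2.3.3, numpy 2.4.6, statsmodels 0.14.6 and matplotlib 3.10.9 were used.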

Additional observations from a re-analysis of the deposited data

Results flagged for a closer look

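YTHDF1 lay slightly below 1 in the polysome to sub-polysome ratio of METTL3 WT cells (log2 -0.06) and slightly above 1 in METTL3 K177Q cells (0.07), a difference of 0.13 on the log2 scale. It was singled out because the only library pair of each genotype moved the opposite way. The opposite signs depend on the scaling. They held with equal totals outside the ribosomal protein genes (-0.087 and 0.28), whereas both ratios were above 0 with TPM (0.071 and 0.50) and below 0 with size factors (-0.21 and -0.096), with centring (-0.21 and -0.098) and without the trend on coding length (-0.33 and -0.28). The 95% counting interval of each ratio holds 0, and the difference was not tested.

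YTHDF3 was higher in METTL3 K177Q than in METTL3 WT cells in polysomes (log2 0.35) and marginally lower in sub-polysomes (-0.01), so that its translation efficiency ratio was 0.37. It was singled out because the fractions moved in opposite directions, with 1 library each, and this difference was not tested. Its sub-polysome value became 0.035 without the trend on coding length, so that both fractions then had the same sign, and stayed below 0 in the other settings in which YTHDF3 was kept. The sub-polysome value is within counting error of 0, and the estimated fragments behind the 4 values run from 489 to 648.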

How the results depend on the processing

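No paired analysis was possible because each condition has 1 library among the listed samples, the columns named replicate 1 being unused, so no replicate could be left out. The median log2 values of the members are given in the order METTL3 WT ratio, METTL3 K177Q ratio, sub-polysome difference and translation efficiency ratio. With TPM they were 0.071, 0.50, -0.34 and 0.43, and 1 member was past 1.5-fold in translation efficiency, where 18.6% of all genes were higher. With equal totals outside the ribosomal protein genes, the METTL3 K177Q ratio was 0.28, the sub-polysome difference -0.33 and the translation efficiency ratio 0.37, with 1 member past 1.5-fold, where 13.9% of all genes were higher. The METTL3 WT and METTL3 K177Q ratios were -0.21 and -0.096 with size factors, -0.21 and -0.098 when centred, and -0.33 and -0.38 without the trend on coding length, which was chosen after seeing the data. TPM also put YTHDF2 (log2 0.59) and YTHDC1 (0.76) in METTL3 K177Q and FTO (0.61) in METTL3 WT cells past the threshold between fractions. With TPM the median of all genes was itself 0.28 in METTL3 WT and 0.59 in METTL3 K177Q cells, so YTHDF2 was not above it. Removal of the trend put YTHDF3 in METTL3 WT cells (-0.65) and IGF2BP3 in both (-0.69 and -0.65) past the threshold, beside medians of all genes of 0.0064 and 0.019. The shares of all genes past the threshold between fractions are not given for these settings, so these calls do not set the members apart. IGF2BP2 and ALKBH5 stayed past it in METTL3 WT cells in each setting with the 1.5-fold threshold. Translation efficiency ratios changed sign with TPM and equal totals for YTHDF2 (0.29 and 0.23) and YTHDC2 (0.21 and 0.15), with centring for YTHDF2 (0.00080), and for IGF2BP2 with size factors (-0.0087) and with the trend removed (-0.071). The medians moved by less than 0.1 in the other settings, and the 2-fold threshold left 0 members. Of 231 values of single members, 129 moved by less than 0.1. Depth limits YTHDC2 most, with 261 to 358 estimated fragments a library.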

Other observations

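Of 4 noncoding transcripts named for the members' loci, 3 were in the table. YTHDF3-AS1 had 7.79 FPKM in sub-polysomes and 1.94 FPKM in polysomes of METTL3 WT cells, and 10.4 and 1.002 FPKM in METTL3 K177Q cells. The polysome to sub-polysome ratio thus differed by log2 -1.31 between the genotypes, where YTHDF3 itself had 0.37. For this noncoding transcript the value does not measure translation. It rests on low polysome levels and has no counting interval. YTHDF3-AS1 was the only one with a mean of at least 1 FPKM. FTO-IT1 had 0.482 and 1.03 FPKM in METTL3 WT cells and 0.474 and 0.237 FPKM in METTL3 K177Q cells, and IGF2BP2-AS1 was listed at 0 throughout. The libraries were directional, but whether strand was used in quantification is not given in the sources used here, so reads of a gene and its antisense partner may be mixed. PECAM1, an endothelial gene, had 0.537 to 1.81 FPKM across the libraries.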
